A study of Mus musculus with 15 samples.

Results

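The genes described here encode the machinery of the presynaptic terminal: the scaffold of the active zone, the proteins of the synaptic vesicle, the calcium sensors of release, the fusion machinery and the first steps of vesicle retrieval. A list of 39 such genes, named by their GRCm38 symbols, was taken from the 22524 gene identifiers of each deposited table, and all 39 were found and passed the filter on low counts. They fall into 9 active zone, 12 vesicle, 6 calcium sensor, 9 fusion and 3 endocytosis genes. The list holds no measured value in its rule, but it was drawn up with earlier results of these data known.

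RNA was sequenced from 15 female C57BL/6 mice aged 18 months. In 7 of them 1 copy of Rps9, which encodes a protein of the small ribosomal subunit, carried the D95N substitution (heterozygous, called D95N here), and 8 were Rps9 WT/WT littermates (called wild type). Both groups share sex, age and strain, and no treatment is recorded. The series design names the brain cortex while the tissue field names skeletal muscle; 7 pan-neuronal genes summed to 4410 to 4610 CPM (read counts brought to a shared library size by TMM factors) in D95N and 4230 to 4330 CPM in wild type, and 7 skeletal muscle genes to 7.8 to 12.4 and 8.08 to 30.1 CPM. Libraries are named by genotype and animal number.

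At a central synapse an action potential opens calcium channels held at the active zone by large scaffold proteins. Calcium binds synaptotagmins on vesicles that Munc13 and RIM proteins have made ready, the SNARE proteins of vesicle and plasma membrane zip together, and the transmitter is released. NSF and its SNAP adaptors then take the SNARE complexes apart, and clathrin, amphiphysin, dynamin and synaptojanin rebuild vesicles from the terminal membrane. In the cerebral cortex most glutamatergic neurons load vesicles with the transporter VGLUT1 (Slc17a7), and axons arriving from the thalamus use VGLUT2 (Slc17a6). Several steps are served by closely related genes, such as the synapsins Syn1 and Syn2 and the SNAP adaptors Napa and Napb.

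The promoters of those 2 pairs are shown as examples, 2 of 7 pairs whose balance differed between the genotypes (ratios below). Each runs from 250 bases before to 10 bases after the RefSeq start on GRCm38.p6, read 5′ to 3′ on the gene's strand, and capitals mark the cyclic AMP response element TGACGTCA or the E-box CACGTG.
Syn1, chrX:20920909-20921168, minus strand: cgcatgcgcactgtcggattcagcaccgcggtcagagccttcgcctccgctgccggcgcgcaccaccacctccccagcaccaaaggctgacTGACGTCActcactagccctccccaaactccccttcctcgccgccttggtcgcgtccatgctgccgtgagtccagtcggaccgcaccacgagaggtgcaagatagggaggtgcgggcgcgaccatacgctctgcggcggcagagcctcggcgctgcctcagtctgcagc
Syn2, chr6:115134652-115134911, plus strand: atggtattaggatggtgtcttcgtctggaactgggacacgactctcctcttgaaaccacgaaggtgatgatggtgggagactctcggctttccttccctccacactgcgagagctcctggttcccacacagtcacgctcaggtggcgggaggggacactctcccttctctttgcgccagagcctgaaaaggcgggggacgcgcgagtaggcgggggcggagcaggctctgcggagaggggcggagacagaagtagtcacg
Napa, chr7:16098330-16098589, plus strand: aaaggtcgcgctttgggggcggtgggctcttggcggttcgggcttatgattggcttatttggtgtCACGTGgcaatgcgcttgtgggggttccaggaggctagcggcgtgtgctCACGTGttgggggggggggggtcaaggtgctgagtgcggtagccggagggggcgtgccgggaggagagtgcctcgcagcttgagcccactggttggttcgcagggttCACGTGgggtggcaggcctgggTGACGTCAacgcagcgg
Napb, chr2:148732411-148732670, minus strand: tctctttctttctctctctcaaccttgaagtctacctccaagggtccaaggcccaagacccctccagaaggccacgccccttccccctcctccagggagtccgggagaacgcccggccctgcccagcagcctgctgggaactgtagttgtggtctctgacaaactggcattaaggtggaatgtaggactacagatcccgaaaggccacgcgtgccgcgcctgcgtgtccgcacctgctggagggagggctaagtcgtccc
The Syn1 window holds TGACGTCA 159 bases before the start, and the Napa window holds it 7 bases before the start together with CACGTG at 185, 136 and 29 bases before. Neither motif is in the Syn2 or Napb window. In another of the 7 pairs the Unc13b window holds CACGTG 233 bases before the start, and the Unc13a window holds neither motif. A link between motifs and the direction of change was not tested. Over windows of 300 bases that reach 50 bases past the start, 31 of the 39 genes were in the RefSeq table, with 41 windows. TGACGTCA was in 4.88% of these windows (2 of 41) and in 1.79% of all 32851 windows, CACGTG in 9.76% and 7.15%, and the AP-1 site TGACTCA or TGAGTCA in 4.88% and 5.2%, each on either strand. The median GC content was 62.3% in windows of these genes and 52.7% in all windows, and its part in these shares was not tested. The motif counts are matches of letters, with no binding measured. Rims2, Syn3, Syngr3, Syt4, Syt7, Doc2b, Snap25 and Vamp2 were named only.

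Library totals ran from 23349381 to 34587082 counts. The lowest count of any of the 39 genes in a library was 254, for Syn3, and 38 of them had at least 1000 counts in every library. Rps9 itself did not pass the test, with means of 63.1 CPM ± 6.13 in the 7 D95N libraries (SD) and 65.3 CPM ± 3.02 in the 8 others (SD; edgeR, adjusted p = 0.505), and gene counts cannot show the substitution. Library D95N 42 stood apart from the other 6 D95N libraries. Counts over the 39 genes and values of some single genes are given with and without it, and most other results only with it. Group values below are means ± SD over 7 D95N and 8 wild-type libraries, and folds are D95N over wild type.

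More presynaptic genes were higher than lower in D95N. Of the 39, 14 rose and 5 fell in the edgeR quasi-likelihood test (Benjamini-Hochberg adjusted over all genes, threshold 0.05), and 20 did not pass. That is 48.7% called, where 26.8% of all 14989 tested genes were called, 15.2% higher and 11.6% lower, and 30.9% of the 10177 genes that averaged 10 CPM or more. The median log2 fold change was 0.05 over the 39 genes and -0.01 over all tested genes. Its median SE was 0.052 over the 39 genes and 0.065 over all tested genes, and the part of this in the share called was not tested. The changes were small: genes that rose did so by 1.09-fold to 1.48-fold and genes that fell went to 0.839-fold to 0.901-fold. With library totals in place of TMM factors 12 rose and 7 fell, and without D95N 42 16 rose and 8 fell. Of all tested genes 1808 rose and 2536 fell with library totals (29.0% called). Without D95N 42 2694 of all tested genes rose and 2282 fell (33.1% called). With blood and meningeal marker scores as covariates 0 rose and 0 fell (values with the other cell types, at the end). Fewer cells of a type and less RNA per cell cannot be told apart in such tissue libraries.

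**Figure D1:**
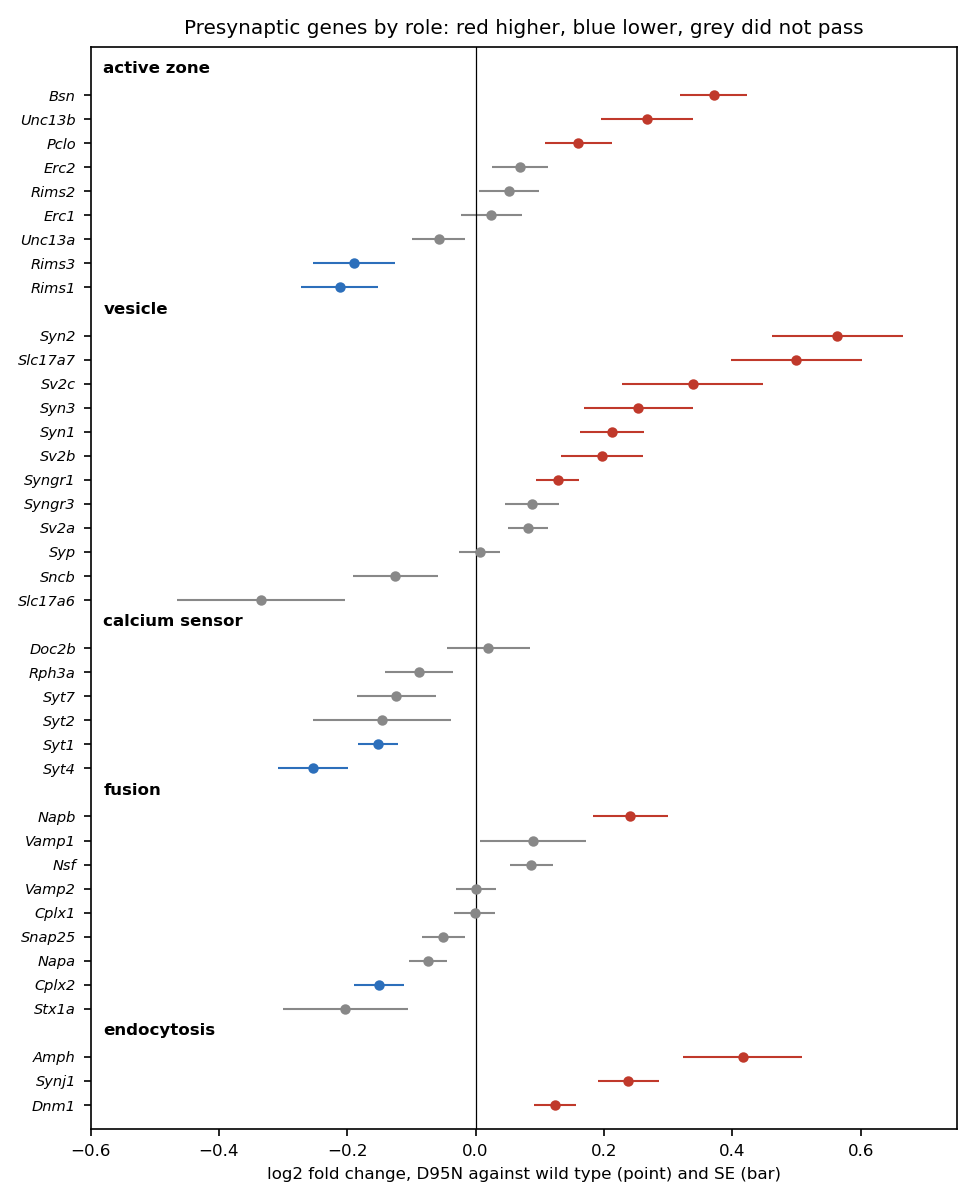
The log2 fold change of each of the 39 genes (horizontal axis, D95N against wild type, bars SE) is grouped by role on the vertical axis, red where higher, blue where lower and grey where the test was not passed. All 3 endocytosis genes and 7 of 12 vesicle genes are red, and no gene listed as a calcium sensor is.

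Scaffold and priming genes of the active zone moved both ways, with 3 of 9 higher and 2 lower. Bsn (ENSMUSG00000032589, chromosome 9, 108096022 to 108190384), the giant scaffold bassoon, had the smallest p of the 39. Its CPM ran from 519 to 632 with a median of 623 in D95N and from 420.3 to 526.8 with a median of 456.5 in wild type. Only D95N 42 lay within the wild-type range. The increase was 1.29-fold, or 0.37 ± 0.05 on the log2 scale (SE), at an adjusted p of 0.000297. Its partner scaffold Pclo (piccolo) rose 1.117-fold, from 277 ± 13.1 to 310 ± 29.1 CPM (adjusted p = 0.0305), with 4 D95N libraries above every wild-type library and 1, D95N 28, below. The call for Pclo was lost with library totals, with upper-quartile factors and without any 1 of 7 single libraries (D95N 4, 41 or 44, wild type 16, 19, 32 or 8; highest adjusted p 0.065).

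Priming genes split in the same way. Unc13b, which encodes the priming factor Munc13-2, rose 1.203-fold, from 39.8 ± 2.30 to 47.9 ± 6.60 CPM (adjusted p = 0.0115), with 5 D95N libraries past the highest wild-type library. The more abundant Munc13-1 gene Unc13a stood at 265 ± 15.6 and 276 ± 14.4 CPM and did not pass (adjusted p = 0.314). Rims1, a RIM protein that ties vesicles to calcium channels, fell to 0.863-fold (log2 fold change -0.21 ± 0.06 SE, adjusted p = 0.0148). Its CPM ran from 153 to 216 with a median of 165 in D95N and from 191 to 211 with a median of 201 in wild type. In 6 D95N libraries it was below every wild-type library and in D95N 42 above every one. Rims3, a short RIM, fell to 0.877-fold, from 272 ± 19.8 to 239 ± 28.1 CPM (adjusted p = 0.036), and its call was lost without any 1 of 8 single libraries (D95N 21, 28, 4 or 44, wild type 16, 24, 32 or 43; highest adjusted p 0.0762) and with oligodendrocyte, choroid plexus and striatum scores (adjusted p = 0.0598). Rims2 and the ELKS scaffolds Erc1 and Erc2 did not pass, with folds of 1.04, 1.02 and 1.05.

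Vesicle genes carried the largest increases, with 7 of 12 higher and none lower by edgeR (1, Slc17a6, at an unadjusted p under 0.05; 1 lower by DESeq2 and by limma-voom, again Slc17a6). Syn2 (ENSMUSG00000009394, chromosome 6, 115134902 to 115282006), a synapsin that holds vesicles in the reserve pool, changed most. Its CPM was 1002, 867, 1108, 814, 569, 997 and 942 in D95N 21, 28, 4, 41, 42, 44 and 50. In wild type it ran from 541 to 702 with a median of 608. In 6 D95N libraries Syn2 lay above all wild-type libraries and in D95N 42 it lay among them. It rose 1.48-fold (log2 fold change 0.56 ± 0.10 SE, adjusted p = 0.00109). Syn1, the X-linked synapsin, rose 1.16-fold, from 654 ± 28.9 to 757 ± 67.9 CPM (adjusted p = 0.00527), again with 6 libraries above and D95N 42 inside the wild-type range. Syn3 was scarce, at 11.3 ± 1.89 and 9.50 ± 0.523 CPM, and rose 1.19-fold (adjusted p = 0.0358). Syn3 shares 1733 exonic bases, 14.1% of its exons, with Timp3 on the opposite strand, and no source used here gives the strand setting of the counting: reads of the 2 genes cannot be told apart. Its call was lost with library totals, upper-quartile factors or limma-voom and without any 1 of 9 single libraries (D95N 21, 4 or 50, wild type 11, 16, 19, 30, 32 or 8; highest adjusted p 0.0826). Exons of Syp (16.8%), Syt4 (14.5%) and Erc1 (11.8%) also overlap opposite-strand genes, which are absent from the counts.

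Of the glutamate transporters of the vesicle membrane Slc17a7 passed as higher and Slc17a6 did not pass. Slc17a7 (ENSMUSG00000070570, chromosome 7, 45163949 to 45176142) rose 1.41-fold (log2 fold change 0.50 ± 0.10 SE, adjusted p = 0.00232). Its CPM ran from 1196 to 2139 with a median of 1881 in D95N and from 1144 to 1458 with a median of 1241 in wild type. In 5 D95N libraries it was above every wild-type library, and D95N 41 and 42 were inside the wild-type range. Slc17a6 averaged 86.5 ± 25.3 CPM in D95N against 109 ± 10.1 CPM, which did not pass (log2 fold change -0.33 ± 0.13 SE, adjusted p = 0.0667). It was below every wild-type library in 5 D95N libraries and highest of all 15 in D95N 42, at 136 CPM. Without that library its log2 fold change was -0.48 (adjusted p = 0.000994).

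Marker genes of the neurons that use these transporters did not move as 1 group. Of 6 excitatory neuron markers Nrgn and Emx1 rose, to 1.17-fold and 1.51-fold, and Camk2a and Neurod6 fell, to 0.872-fold and 0.767-fold, and their summed level was 3360 to 4170 CPM in D95N and 3730 to 3950 CPM in wild type. Of 6 thalamic markers only Ntng1 passed, at 0.733-fold, and the summed level was 177 to 233 CPM in D95N and 176 to 328 CPM in wild type, with no marker at 0. The part of these cells in the transporter levels was not tested.

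Among vesicle membrane proteins Sv2c, an SV2 glycoprotein, rose 1.26-fold (adjusted p = 0.0302), Sv2b 1.15-fold (adjusted p = 0.0315) and Syngr1, synaptogyrin, 1.09-fold (adjusted p = 0.0112). Sv2c ran from 88.1 to 161 CPM in D95N and from 83.7 to 119.9 CPM in wild type, with only 3 D95N libraries above every wild-type library. Syngr1 was above every wild-type library in 6 D95N libraries, D95N 42 again excepted, and its call was lost with a correction for GC content and length. The calls for Sv2c and Sv2b were lost without any 1 of 6 and 8 single libraries (for Sv2c D95N 21 or 50, wild type 11, 19, 32 or 8; for Sv2b D95N 21, 4, 44 or 50, wild type 19, 30, 32 or 43), with adjusted p up to 0.0721 and 0.0652. Oligodendrocyte, choroid plexus and striatum scores also ended the call for Sv2b (adjusted p = 0.0514). Synaptophysin (Syp), the most used marker of vesicles, stood at 1407 ± 63.5 and 1401 ± 40.4 CPM (log2 fold change 0.01 ± 0.03 SE, adjusted p = 0.898). Sv2a, the widespread SV2 protein, Syngr3 and the beta-synuclein gene Sncb did not pass, with folds of 1.06, 1.06 and 0.917. Sv2a passed as higher by DESeq2 and without D95N 42 or 50. Sncb passed as lower with the correction for GC content and length and without D95N 28.

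**Figure D2:**
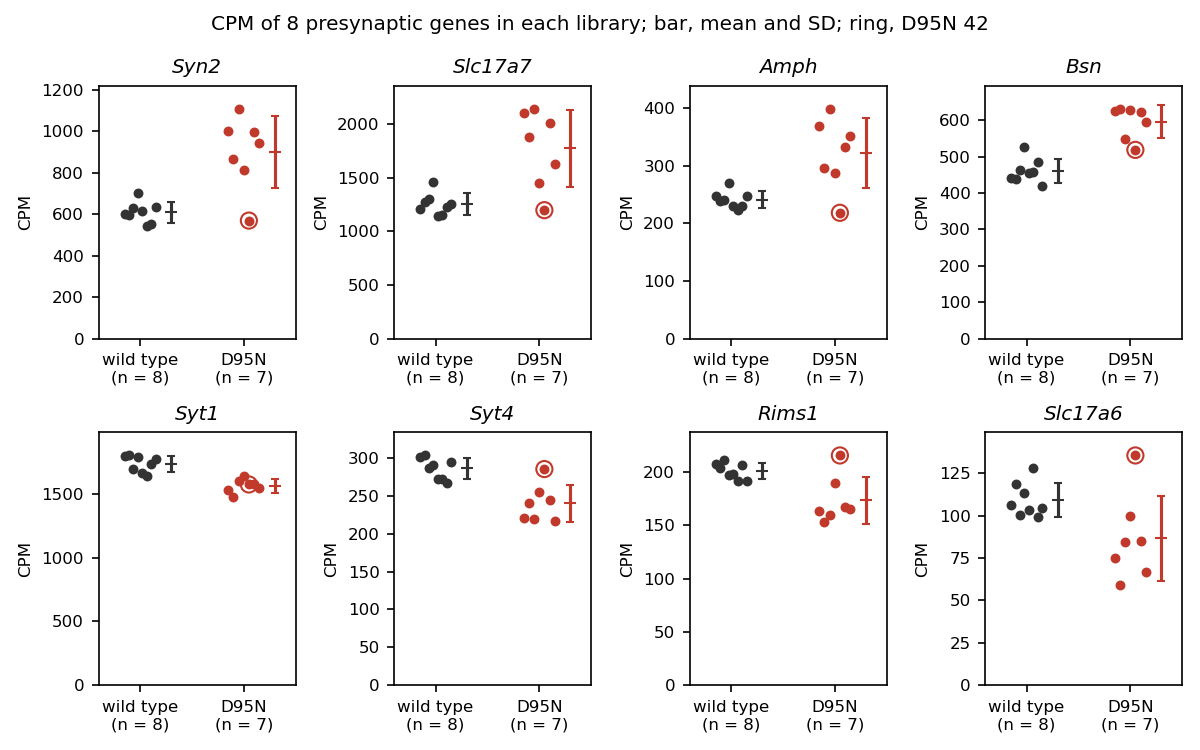
CPM in each library (points; vertical axes from 0) for 8 presynaptic genes, with mean and SD bars for wild type (n = 8, grey) and D95N (n = 7, red) and a ring around D95N 42. In Syn2, Slc17a7, Amph and Bsn most red points lie above the grey ones, in Syt1 all lie below, and D95N 42 lies near or past the wild-type values in Syn2, Slc17a7, Amph, Syt4, Rims1 and Slc17a6.

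None of the 6 genes listed as calcium sensors rose by edgeR (0 with an unadjusted p under 0.05, and 0 by DESeq2), and 2 fell. These 6 were listed by role, and calcium binding of their products was not measured. Syt1 (ENSMUSG00000035864, chromosome 10, 108497650 to 109010982), the sensor of fast release in forebrain neurons, fell to 0.899-fold (log2 fold change -0.15 ± 0.03 SE, adjusted p = 0.0023). Its CPM was 1529, 1477, 1601, 1645, 1576, 1579 and 1546 in D95N 21, 28, 4, 41, 42, 44 and 50, and ran from 1646 to 1804 with a median of 1754 in wild type. Syt1 was the 1 gene of the 39 whose D95N and wild-type values did not overlap, with every D95N library lower, as in 1.47% of all tested genes, although D95N 41 and wild type 32 nearly met. The reverse, every D95N library higher, held for 1.81% of all tested genes and for none of the 39. Syt4, a synaptotagmin also found on dense-core vesicles, fell to 0.839-fold, from 287 ± 13.99 to 240.4 ± 24.8 CPM (log2 fold change -0.25 ± 0.05 SE, adjusted p = 0.00309), and all D95N libraries except 42 were below the wild-type range.

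The other genes listed as sensors did not pass. Syt2, the fast sensor of some inhibitory and hindbrain terminals, stood at 108 ± 22.4 and 120 ± 15.7 CPM (adjusted p = 0.331), Syt7, a slow high-affinity sensor, at 319 ± 39.2 and 347 ± 12.7 CPM (adjusted p = 0.143), and Doc2b, tied to spontaneous release, at 59.8 ± 4.27 and 59.0 ± 6.71 CPM (adjusted p = 0.848). Rph3a, the Rab3 effector rabphilin, was below every wild-type library in 5 D95N libraries and above every one in D95N 42 (0.941-fold, adjusted p = 0.221). Without D95N 42 both Syt2 and Rph3a passed as lower, with log2 fold changes of -0.26 and -0.14.

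Of the 9 fusion genes 7 did not pass. The SNARE genes were all among those: Snap25 stood at 2746 ± 110 and 2844 ± 120 CPM (0.966-fold, adjusted p = 0.283), Vamp2 at 1240 ± 51.7 and 1240 ± 33.4 CPM (adjusted p = 0.991), Vamp1 at 1.06-fold and Stx1a at 0.869-fold (adjusted p = 0.128). Stx1a differed widely within D95N, from 125 to 208 CPM, against 174 to 204 CPM in wild type. Snap25 passed as lower with library totals. Stx1a did so with the GC and length correction and without D95N 28. Cplx2, a complexin that clamps and then promotes fusion of primed vesicles, fell to 0.901-fold, from 1449 ± 56.7 to 1306 ± 82.9 CPM (log2 fold change -0.15 ± 0.04 SE, adjusted p = 0.00991). In 6 D95N libraries it lay below every wild-type library, and D95N 28 was inside their range. Cplx1 stood at 782 ± 24.1 and 783 ± 32.6 CPM (adjusted p = 0.981).

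The adaptors that recruit NSF differed from each other. Napb, the brain SNAP adaptor, rose 1.18-fold, with CPM from 758 to 997 and a median of 849 in D95N and from 646 to 774 with a median of 751 in wild type (log2 fold change 0.24 ± 0.06 SE, adjusted p = 0.00669). D95N 42 and 50 were inside the wild-type range. Napa, the adaptor of most tissues, stood at 211 ± 8.79 and 222 ± 4.44 CPM (0.95-fold, adjusted p = 0.0675), and passed as lower without D95N 28, with library totals or upper-quartile factors, by DESeq2 and with the GC and length correction. The ATPase gene Nsf was at 1.06-fold (adjusted p = 0.0673) and passed by DESeq2 and without D95N 42.

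The 3 endocytosis genes all rose. Amph, amphiphysin, which senses membrane curvature and binds dynamin, rose 1.33-fold (log2 fold change 0.42 ± 0.09 SE, adjusted p = 0.00386). Its CPM ran from 218 to 399 with a median of 332 in D95N and from 224 to 271 with a median of 240 in wild type . In 6 D95N libraries it was above all wild-type libraries and in D95N 42 below all of them. Synj1, the phosphoinositide phosphatase synaptojanin that helps shed the clathrin coat, rose 1.18-fold, from 516 ± 15.2 to 608 ± 55.4 CPM (adjusted p = 0.00193). Dnm1, the neuronal dynamin that cuts vesicles from the membrane, rose 1.09-fold, from 1359 ± 17.7 to 1480.0 ± 81.8 CPM (adjusted p = 0.011), a call lost with the GC and length correction.

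Levels of different genes can be set side by side only per length, as CPM divided by exon length in kb. On that scale the most abundant of the 39 in wild type were Snap25 at 419 ± 17.6, Cplx1 at 358 ± 14.9 and Vamp2 at 325 ± 8.76 CPM per kb. None of these 3 passed the test between genotypes. Slc17a7 stood at 232 ± 18.5 and Slc17a6 at 20.2 ± 1.87 CPM per kb, Syn1 at 198 ± 8.75 and Syn2 at 86.6 ± 7.23. The lowest levels were those of Syn3 at 0.773 ± 0.0426 and Unc13b at 1.75 ± 0.101 CPM per kb, below Unc13a at 21.8 ± 1.14. The genes that rose ran from Syn3 to Dnm1, at 259 ± 3.37 CPM per kb.

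**Figure D3:**
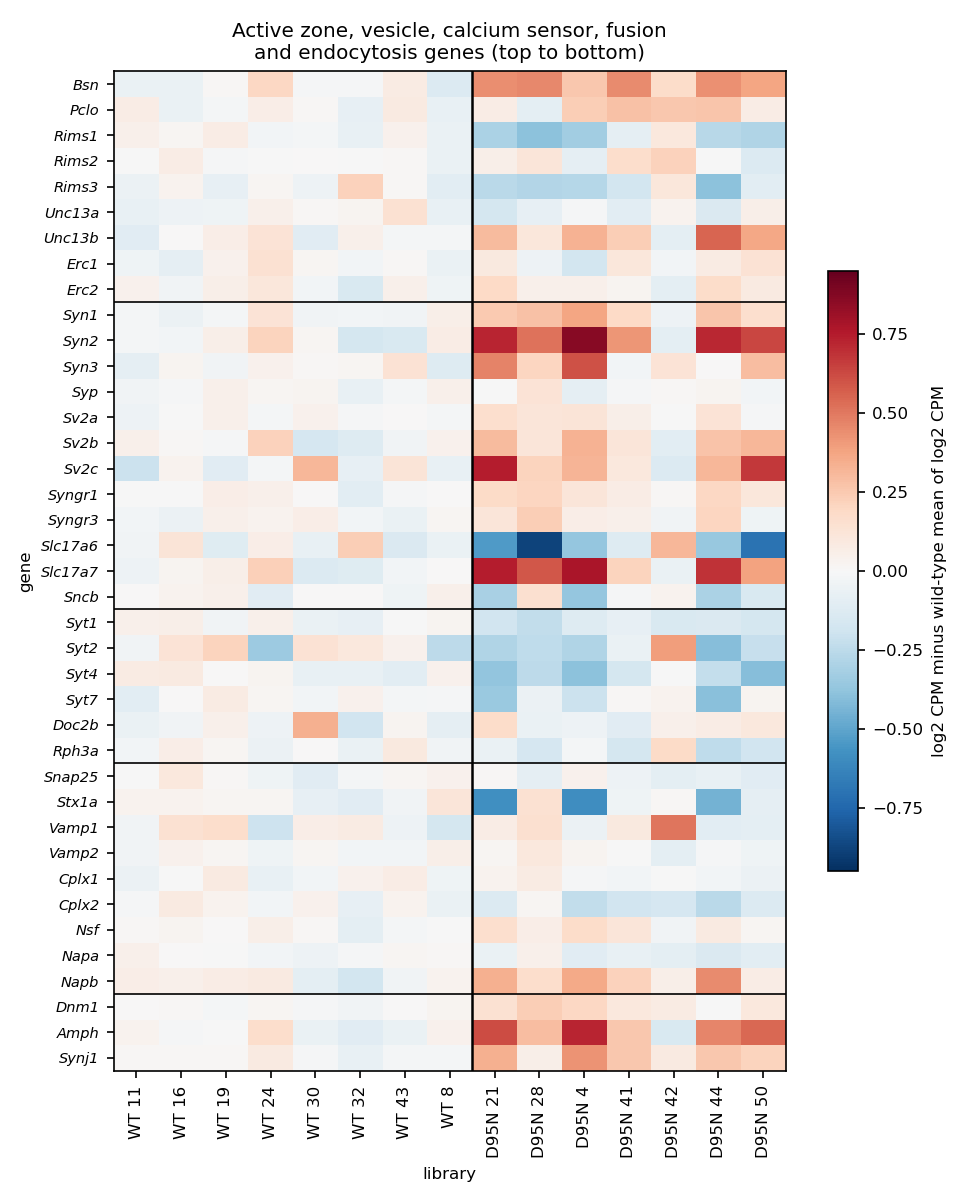
Each row is 1 of the 39 genes by role and each column 1 library, with wild type left and D95N right of the line. Colour gives log2 CPM minus the wild-type mean of log2 CPM, red above and blue below. The columns of D95N 21, 4, 44 and 50 repeat much of the same pattern, and that of D95N 42 is paler and in some rows of the opposite colour.

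Spread was wider within D95N than within wild type. In 35 of the 39 genes (89.7%) the SD of log2 CPM was larger in D95N, as in 83.0% of all tested genes, and its median was 0.134 in D95N and 0.0679 in wild type. Library D95N 42 was above every wild-type library in only 3 of the 14 genes that rose, and the other 6 D95N libraries in 9 to 14 of them. It had the lowest D95N value in 10 of those 14 and the highest in 3 of the 5 genes that fell. Among wild-type libraries animal 24 was above all 7 others in 9 of the 14 genes and animal 32 below all 7 others in 7. Without D95N 42 Sv2a and Nsf were added to the genes that rose, and Slc17a6, Syt2 and Rph3a to those that fell.

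Ratios of 2 related genes within a library do not depend on how libraries are scaled, and 14 such pairs were compared by exact permutation, two-sided, with all 6435 regroupings of the libraries and adjustment over the 14. In 7 pairs the ratio differed. How many other pairs of genes would differ or separate was not computed, and 26.8% of all tested genes were called singly. Rims2 over Rims1 was higher in all 7 D95N libraries than in any wild-type library, with a mean log2 ratio of -1.21 ± 0.13 (SD, n = 7) and -1.48 ± 0.05 (SD, n = 8; exact permutation p = 0.000155, adjusted p = 0.00109). Napb over Napa also separated all 7 from all 8 libraries, at 2.03 ± 0.18 and 1.72 ± 0.09 on the log2 scale (exact permutation p = 0.000155, adjusted p = 0.00109). That p is 1 of 6435 regroupings, the smallest this test can give. Both separations include D95N 42.

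The other 5 ratios overlapped between the groups. Syn2 over Syn1 exceeded the whole wild-type range in 6 D95N libraries, a difference of 0.33 in mean log2 ratio (exact permutation, adjusted p = 0.00707), and in D95N 42 it was within the wild-type range. Expressed as a ratio of counts, wild-type libraries held 0.93 Syn2 counts for each Syn1 count and D95N libraries 1.17. Unc13b over Unc13a differed by 0.31 (exact permutation, adjusted p = 0.0152), with 6 of 7 above. Cplx2 over Cplx1 differed by -0.15 (exact permutation, adjusted p = 0.00707), with 5 of 7 below every wild-type library. Slc17a6 over Slc17a7 showed the largest shift, -0.85 (exact permutation, adjusted p = 0.016): it was below every wild-type library in 6 D95N libraries and above every one in D95N 42. Pclo over Bsn differed by -0.21 (exact permutation, adjusted p = 0.0357), and this call was lost without any 1 of 9 single libraries (D95N 21, 28 or 50, wild type 11, 16, 19, 30, 43 or 8), with adjusted p up to 0.0733. Ratios of Erc2 to Erc1, Syn3 to Syn1, Sv2b and Sv2c to Sv2a, Syngr3 to Syngr1, Syt2 to Syt1 and Vamp1 to Vamp2 did not pass (exact permutation, adjusted p from 0.103 to 0.975).

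**Figure D4:**
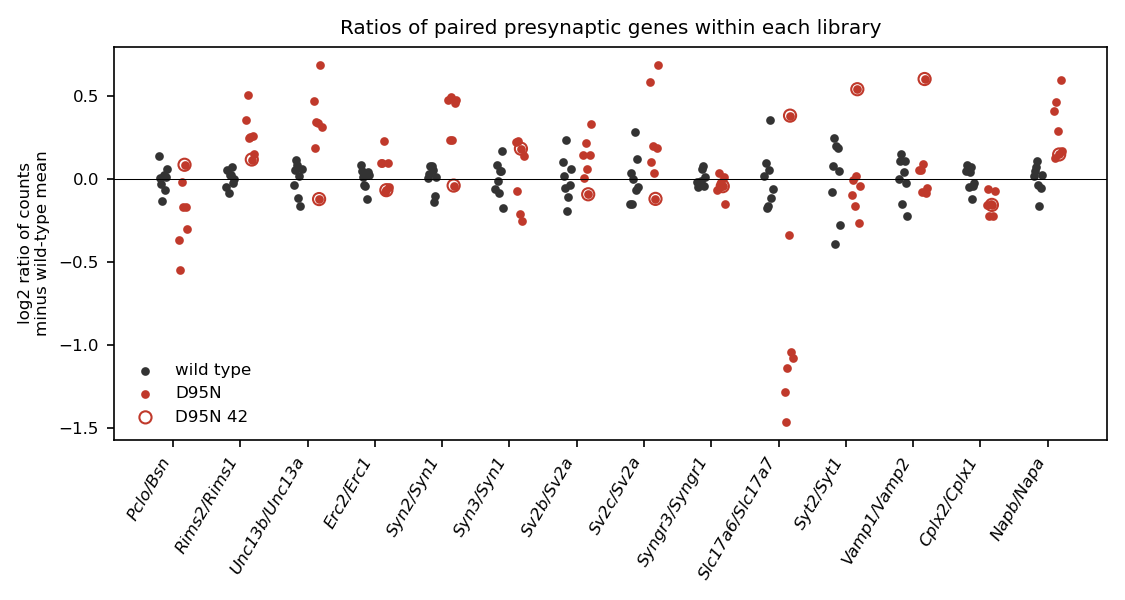
Log2 ratio of counts of 2 related genes in each library minus the wild-type mean (vertical axis) for 14 pairs, with wild type in grey, D95N in red and a ring around D95N 42. All red points lie above all grey points in Rims2/Rims1 and Napb/Napa, and in Slc17a6/Slc17a7 6 red points lie below the grey ones with D95N 42 above.

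A further 92 presynaptic genes were listed by role, not by how they moved. Of these 28 rose and 11 fell, with a median log2 fold change of 0.05. That is 42.4% called, beside 26.8% of all tested genes and 30.9% of those that averaged 10 CPM or more. With library totals 22 rose and 15 fell, where 1808 of all tested genes rose and 2536 fell (29.0% called). By role the genes higher and lower were 3 and 4 of 18 active zone and adhesion genes, 3 and 2 of 17 vesicle genes, 4 and 3 of 15 calcium sensors, 6 and 1 of 17 fusion genes, and 12 and 1 of 25 endocytosis genes.

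Endocytosis genes made up 12 of the 28 that rose, a difference between roles that was not tested. All 5 genes of the clathrin adaptor AP-2, which gathers cargo into coated pits, rose, by 1.15-fold to 1.44-fold (edgeR, adjusted p from 0.000507 to 0.0106). Ap2a2, its alpha-2 subunit, had the largest fold of the 5, with 401 ± 65.8 CPM in D95N and 279 ± 14.7 CPM in wild type, with D95N 42 inside the wild-type range and the other 6 above it. Ap2a1 and Ap2s1 rose 1.16-fold and 1.15-fold. Of the 3 clathrin chains Cltb passed, at 1.17-fold.

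Active zone and adhesion genes held the largest single change. Rimbp2, the RIM-binding protein that links calcium channels to the release site, was 1.94-fold higher (log2 fold change 0.95 ± 0.14 SE, adjusted p = 0.000333). Its CPM ran from 123.5 to 304 with a median of 272.5 in D95N and from 113 to 148 with a median of 123.5 in wild type, and D95N 42 had the lowest D95N value. Nrxn2, a neurexin of the adhesion complexes that organise terminals, rose 1.17-fold with all 7 D95N libraries above all 8 wild-type libraries. Lin7a, a small scaffold that binds neurexin complexes through Cask, fell to 0.82-fold.

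Other vesicle genes included the transporter of inhibitory vesicles. Slc32a1, which loads GABA and glycine, rose 1.28-fold, from 149 ± 14 to 191 ± 29.3 CPM (adjusted p = 0.00503). Of 6 inhibitory neuron markers Gad1, Gad2 and Sst rose, to 1.15-fold, 1.38-fold and 1.30-fold, and Vip and Lamp5 fell, to 0.803-fold and 0.704-fold. Their summed level lay between 1100.0 (D95N 42) and 1640.0 CPM in the mutant group and between 1110.0 and 1270.0 CPM in wild type, and its part in the level of Slc32a1 was not tested. Slc17a8, the scarce glutamate transporter VGLUT3, fell to 0.802-fold, from 6.59 ± 0.626 to 5.28 ± 0.788 CPM (adjusted p = 0.0193), and was named after its values were seen. Svop, a transporter-like vesicle protein, rose 1.29-fold, and Rab3b, a Rab of secretory vesicles, fell to 0.842-fold.

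Among further genes listed as calcium sensors Doc2a and Ncs1, a neuronal EF-hand protein, rose 1.44-fold and 1.23-fold. The synaptotagmins Syt9 and Syt16 fell to 0.70-fold and 0.824-fold. Among fusion genes the tomosyns Stxbp5 and Stxbp5l, which bind syntaxin in place of the vesicle SNARE, rose 1.204-fold and 1.191-fold, and Stxbp6 fell to 0.813-fold.

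**Figure D5:**
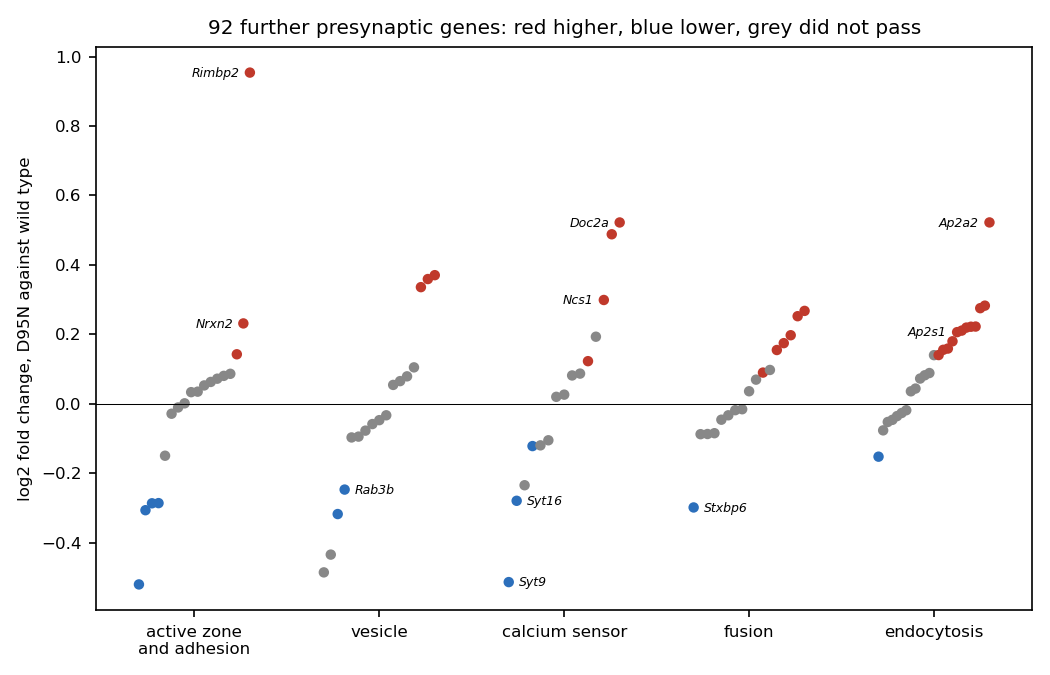
Log2 fold change (vertical axis, D95N against wild type) of the 92 further genes in 5 roles, ordered by value within each role, red where higher, blue where lower and grey where the test was not passed. Endocytosis holds 12 red points and 1 blue point, and Rimbp2 stands highest at 0.95.

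Markers of some other cells moved with the genotype beside these genes. Of 6 oligodendrocyte, 6 microglia and 5 choroid plexus markers 0 passed, and of 5 endothelial markers 1 fell. The neuronal sum given above did not overlap between the groups (it did with library totals), although of its 7 genes only Thy1 rose, to 1.098-fold, and Nefl fell, to 0.895-fold. Of 6 astrocyte markers Slc1a3, Slc4a4 and Gja1 fell, to 0.857-fold, 0.838-fold and 0.786-fold, Slc1a3 with every D95N library below every wild-type library. Slc1a2, the most abundant of the 6, Aldh1l1 and Aqp4 did not pass, at 0.992-fold, 1.013-fold and 0.968-fold. The summed astrocyte level was 3160.0 to 4020.0 CPM in D95N and 3760.0 to 3950.0 CPM in wild type. All 8 blood markers and 5 of 9 meningeal markers were lower in D95N, with summed levels of 37.3 to 149 and 84.9 to 167 CPM in D95N and 81.4 to 312 and 152 to 209 CPM in wild type. With scores of both lists as covariates in the fit, none of the 39 genes passed (6 at an unadjusted p under 0.05, smallest adjusted p 0.156), and 18 of the 19 called genes kept their sign, Rims3 being the exception. In that fit the median SE of the 39 genes was 0.0933, against 0.052 without scores, and 8 of all 14989 genes passed. The part of blood and meninges in the results was not otherwise tested, and that of astrocytes was not tested. D95N 42 had the lowest D95N sum in the striatum list, 572 CPM (D95N up to 1370, wild type 670 to 1070 CPM). It was also lowest in the choroid plexus list, 198 CPM (D95N up to 1140, wild type 275 to 1060 CPM), and in the hippocampus list. In the blood list it was the highest of D95N, at 149 CPM. Of 8 striatum markers 3 fell and 0 rose. The part of tissue content in the values of D95N 42 was not tested. The brainstem list summed to 156 CPM in D95N 4, the highest library, and to at most 48.1 CPM in wild type, and most of this was Slc6a5, a glycine transporter, at up to 135 CPM in D95N. Slc6a5 was the 1 marker of that list that passed (15.8-fold, adjusted p = 0.001); Tph2, Slc6a4, Th and Chat did not pass, and Hoxb3 and Hoxb4 were too low to test. Without D95N 4, 11 of the 39 rose and 4 fell, and 23.6% of all tested genes were called (26.8% with all libraries).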

How the data were processed

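The authors deposited raw read counts for Ensembl genes, with a separate table for every animal. STAR, featureCounts and the GRCm38 build are named per the submitters' processing notes. Their versions, the annotation, strandedness and treatment of multiply mapped reads are not stated in those notes or labels. Library totals ran from 23349381 to 34587082 counts, and no batch is labelled. The genes, lists, ratios and alternatives were chosen with earlier results of these data known.

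Counts were tested in R 4.3.3 with edgeR 4.0.16 (quasi-likelihood, TMM factors, default expression filter, genotype as the 1 term, Benjamini-Hochberg over 14989 genes, threshold 0.05). SE was derived as the absolute log2 fold change over the root of the F statistic. CPM are TMM-scaled. Exon lengths and positions are from GENCODE M21. Within-library ratios, with 0.5 added to each count, were tested by exact permutation. Alternatives were library totals, upper-quartile and RLE factors, DESeq2 1.42.0, limma-voom (limma 3.58.1), filters, a GC and length correction, thinning to the smallest total, 2 sets of marker scores as covariates and leaving out each of 15 libraries. Named genes are all 39, those of the 14 ratios that passed, up to 4 passing genes by smallest p per role of the further 92 (some are not reported here), and markers of which some were chosen after their values were seen: the excitatory, inhibitory and thalamic genes that passed. Summaries ran in Python 3.11.15. Motifs were searched in RefSeq promoter windows (GRCm38.p6).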

Additional observations from a re-analysis of the deposited data

Results flagged for a closer look

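In 7 of 106 groups of values a library lay far from the rest of its group, where chance flags about 1 in 20 for independent values, and values of related genes are not independent. D95N 42 stood highest of the D95N libraries in Syt2, at 157 CPM, and in Vamp1, at 351 CPM. The log2 ratios Syt2/Syt1 and Vamp1/Vamp2 were also highest there, at -3.33 and -1.72. Other single libraries were D95N 28 in Napa, at 229 CPM, wild type 32 in Rims3, at 316 CPM, and wild type 30 in Doc2b, at 74.2 CPM. None of these values was tested against a cause.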

How the results depend on the processing

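Over 11 alternatives other than leaving out a library, the 19 called genes kept direction and call in 181 of 209 comparisons, lost the call in 27 and reversed in 1. Of these, 18 lost calls and the reversal came with blood and meningeal scores, where 0 of the 19 kept the call. Over 15 fits that each left out 1 library the 19 genes kept both in 247 of 285 and none reversed. With blood and meningeal scores 0 of the 39 and 0 of the 92 further genes passed in either direction, and so 0 in each role. Log2 fold changes then turned sign for Rims3 (0.0692), Unc13a (0.065), Erc2 (-0.0355), Syp (-0.0477), Sv2a (-0.00144), Syngr3 (-0.024), Slc17a6 (0.153), Syt2 (0.0443), Syt7 (0.0396), Doc2b (-0.114), Vamp2 (-0.098) and Nsf (-0.0139). With the GC and length correction 8 of the 39 were lower, 3 of them fusion genes and 1 a vesicle gene, and Doc2b (-0.00528), Snap25 (0.027) and Vamp2 (-0.0139) turned sign. With library totals 3 fusion genes were lower, no marker list separated the groups (0 rather than 1, the neuronal list), and Erc1 (-0.00958), Syp (-0.0275), Doc2b (-0.0149) and Vamp2 (-0.0343) turned sign. With upper-quartile factors 2 fusion genes were lower, and Syp (-0.0176), Doc2b (-0.00415) and Vamp2 (-0.0236) turned sign. By DESeq2 2 fusion genes were higher, 2 lower and 1 vesicle gene was lower, and Cplx1 was at 0.000205. Limma-voom also gave 1 vesicle gene lower, with Vamp2 at -2.6e-05. With oligodendrocyte, choroid plexus and striatum scores 1 vesicle and 1 active zone gene were lower, with Syp at -0.0201 and Cplx1 at 0.0266. Vamp2 was at -0.00119 with a minimum of 1 CPM and -0.000289 after thinning, and Cplx1 at 0.00077 after thinning and 0.000614 with RLE factors. The cause was not tested.

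Leaving out 1 library gave 10 to 16 of the 39 higher (10 without wild type 19 or 32, 16 without D95N 42) and 4 to 8 lower (8 without D95N 42), where the fit of all libraries gave 14 and 5. The share of all tested genes called ran from 21.7% (without D95N 21) to 33.1% (without D95N 42). Active zone genes lower ranged from 1 to 2, vesicle genes higher from 4 to 8 and lower from 0 to 1, calcium sensors lower from 2 to 4, and fusion genes higher from 1 to 2 and lower from 1 to 3. Vesicle genes higher were 4 without D95N 21, wild type 19 or wild type 32. Log2 fold changes that crossed 0 ranged from -0.0143 to 0.023 for Syp, -0.00515 to 0.0737 for Doc2b, -0.0164 to 0.017 for Vamp2 and -0.0147 to 0.0113 for Cplx1. Log2 ratio differences did so from -0.000699 to 0.0795 for Syn3/Syn1, -0.0947 to 0.0395 for Syt2/Syt1 and -0.00592 to 0.109 for Vamp1/Vamp2. Of 14 ratios 6 to 8 passed, and 7 with 5 in place of 0.5 added. No paired analysis was possible because the labels give no litter or other pairing of animals, and the groups share no animal number. Depth limits Syn3 most, the 1 gene of 39 under 1000 counts in some library.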
